A study of Homo sapiens with 2 samples.

Results

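The aminoacyl-tRNA synthetases were followed in the human GBM line SF-539, with and without depletion of FKBP9, an immunophilin of the ER. The members were chosen by gene name alone, as the protein-coding genes named for a synthetase together with the scaffold genes AIMP1 and AIMP2, and 39 of the 58735 genes in the table met this rule. No name that followed the pattern belonged to a gene of another kind. There were 18 genes for cytosolic enzymes, 17 for mitochondrial enzymes, 2 genes (GARS and KARS) whose products serve both compartments, and the 2 scaffold genes. The cells carried either the control lentivirus pGIPZ-CTRL (shControl) or a lentivirus with an shRNA against FKBP9 (shFKBP9), and both populations were selected as stable clones with puromycin. Which FKBP9 shRNA the sequenced cells carried, and whether the cells came from 1 clone or several, is not given in the sources used here. One RNA-Seq library was made per condition, so no difference between the conditions has a replicate check and none was tested.

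Synthetases join amino acids to their tRNAs and so set which residue a codon will bring to the ribosome. Human cells keep separate nuclear genes for most of the cytosolic and mitochondrial enzymes, and the mitochondrial proteins are imported to serve translation of the mitochondrial genome. Several cytosolic enzymes are held with the AIMP scaffold proteins in the multisynthetase complex. Many cytosolic synthetase genes are known targets of ATF4, the transcription factor that follows phosphorylation of eIF2alpha in ER stress and amino acid shortage.

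The table gives FPKM, which is fragments scaled to gene length and to library size. Genes held 18116873 fragments in shControl and 17158514 in shFKBP9, of which the 39 members held 73989 and 72089. FKBP9 had 49.8 FPKM in shControl and 4.68 in shFKBP9, so that 9.39% remained. All 6 mesenchymal markers examined had at least 48.6 FPKM in both libraries, whereas of 8 glial markers only NES and SOX9 reached 1 FPKM and GFAP stood at 0.196 and 0.139 FPKM. The labels call the cells epithelial glioma cells. Of 6 epithelial markers, KRT8 had 1.28 and 1.09 FPKM and the other 5, EPCAM and CDH1 among them, were at or under 0.324 FPKM in both libraries. Of 4 neuronal markers, SNAP25 had 4.98 and 5.76 FPKM and the others were under 1 FPKM. The 5 blood and 3 endothelial markers were under 1 FPKM in both libraries. Changes are given as log2 ratios, shFKBP9 over shControl, of FPKM plus 0.1, and intervals, computed from the fragments, are exact 95% Clopper-Pearson intervals that cover counting error only. A gene was called higher or lower when its log2 ratio was beyond 0.3219 in either direction, which is an increase of 25% or its inverse, and its interval left out 0. In bulk RNA, less transcript per cell and fewer cells that express a gene cannot be told apart.

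The promoters of some of the cytosolic genes had a sequence feature that the naming rule did not use. The composite element TGATGCAA, to which ATF4 and C/EBP factors are known to bind in amino acid response genes, was searched on both strands from 250 bases before to 50 bases after each RefSeq gene start (GRCh38.p14). It stood in 6 of the 14 cytosolic promoters found in the reference table (42.9%), in 0 of 14 mitochondrial promoters, in 0 of 2 promoters each of the dual and the scaffold genes, and in 0.866% of all 35116 promoters of this length. The set of all promoters was not limited to protein-coding or expressed genes. The looser form TGATGNAA, which includes every match of TGATGCAA, was found in the same 6 cytosolic promoters, in 1 mitochondrial promoter (YARS2) and in 3.62% of all promoters. Members whose promoters were not in the table include DARS, YARS, LARS, VARS, VARS2 and AARS2. A match describes these letters and does not show that a factor was bound. The 6 matches are shown because they set these cytosolic genes apart by sequence, each as 30 bases of the gene's own strand, 5′ to 3′, with the element, or its reverse complement, in capitals.
TARS (chr5:33440956-33440985, + strand): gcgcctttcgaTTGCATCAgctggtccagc
AARS (chr16:70289675-70289704, - strand): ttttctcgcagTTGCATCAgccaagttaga
NARS (chr18:57621804-57621833, - strand): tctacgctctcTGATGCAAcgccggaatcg
IARS (chr9:92293692-92293721, - strand): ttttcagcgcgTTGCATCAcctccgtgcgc
MARS (chr12:57488053-57488082, + strand): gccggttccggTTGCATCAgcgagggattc
CARS (chr11:3057407-3057436, - strand): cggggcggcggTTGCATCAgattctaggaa
The element began 187 bases upstream of the gene start for AARS, 13 for IARS, 4 for MARS and 2 for CARS, and 2 and 14 bases downstream of it for TARS and NARS.

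The family as a whole was expressed well above the limit of detection. Of the 39 members 38 reached 1 FPKM in at least 1 library, the exception being SARS2, the mitochondrial seryl-tRNA synthetase, with 39 and 24 fragments. Among the cytosolic genes, FPKM in shControl ran from 7.51 for CARS to 77.6 for AARS, and among the mitochondrial genes from 0.667 for SARS2 to 40.5 for IARS2. The median was 24.3 FPKM for the cytosolic and 6.36 FPKM for the mitochondrial genes in shControl, a ratio of 3.81, and 26.7 and 6.35 FPKM in shFKBP9, a ratio of 4.21. For the 17 amino acids with a separate gene in each compartment, the cytosolic gene had the higher FPKM for 15 in both libraries. The exceptions were cysteine, with 24.3 FPKM for CARS2 and 7.51 for CARS in shControl, and isoleucine, with 40.5 for IARS2 and 23.6 for IARS. The gene lengths in the table were longer than the canonical transcript for most members, with a median ratio of 1.51, and for CARS and CARS2 they were 3.67 and 5.69 times as long. Per kilobase of canonical transcript the ratio of the medians was 4.18 in shControl and 4.66 in shFKBP9, and cysteine and isoleucine remained the exceptions.

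**Figure D1:**
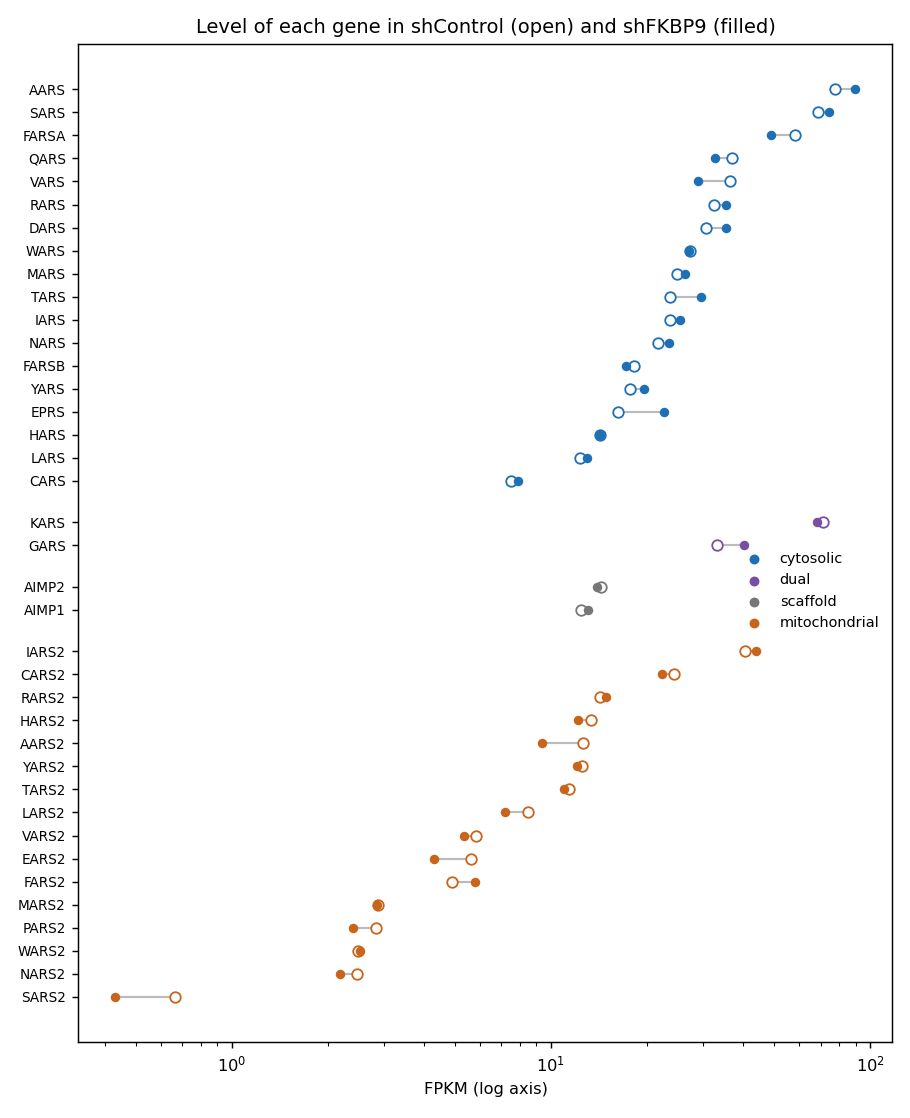
FPKM of 38 of the genes on a log axis, 1 row per gene, with an open circle for the shControl library and a filled circle for the shFKBP9 library. Cytosolic genes run from 7.51 to 77.6 FPKM in shControl and mitochondrial genes from 0.667 to 40.5, and for most genes the circles of both libraries lie close together.

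FARSA and FARSB encode the catalytic and the other subunit of the cytosolic phenylalanyl-tRNA synthetase, a tetramer with equal numbers of both. FARSA had 58.1 FPKM in shControl and 48.9 in shFKBP9, whereas FARSB had 18.1 and 17.2. The FPKM of FARSA was therefore 3.20 times that of FARSB in shControl and 2.85 times in shFKBP9. With the lengths of the canonical transcripts these ratios were 8.64 and 7.68, so their size depended on the transcript model while their direction did not. The canonical transcript of FARSB, with 6761 bases, was longer than its length in the table, 3369 bases. The larger ratios therefore divide the fragments of FARSB by more bases than the table gives it.

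Between the libraries the members changed little. None of the 39 members passed 2-fold, against 0.213% of 10346 expressed protein-coding genes (at least 1 FPKM in either library) that were 2-fold higher and 0.193% that were 2-fold lower. At the limit of 0.3219, 1 of the 39 members (2.56%) was called higher and 3 (7.69%) were called lower, against 5.32% and 6.07% of the expressed genes, so both shares were near the background. At 1.5-fold 0 members were called, against 1.08% of the expressed genes higher and 1.13% lower, and at 1.1-fold 16.2% and 19.6% of the expressed genes were called. The members called at 0.3219 were EPRS, VARS, AARS2 and EARS2. The medians of the cytosolic and mitochondrial genes nevertheless lay on different sides of 0, with genes of each group on both sides. Of the 18 cytosolic genes 13 had a log2 ratio above 0 and of the 17 mitochondrial genes 4, against 46.3% of the expressed genes. The median log2 ratio was 0.09 for the cytosolic genes, -0.12 for the mitochondrial genes and -0.02 for the expressed genes, whose middle 50% lay between -0.15 and 0.12. All fragments summed, the cytosolic genes were at 0.07 (95% interval 0.05 to 0.09) and the mitochondrial genes at -0.08 (-0.11 to -0.04). These intervals leave out the spread between genes, and genes with more fragments weigh more in the sums.

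GC content moved with the ratio across the whole table. The expressed protein-coding genes were divided into 10 bins of equal size by the GC content of the canonical transcript. The median log2 ratio was 0.15 in the bin with the lowest GC content and -0.12 in the bin with the highest. The median GC content was 50.4% for the cytosolic and 50% for the mitochondrial genes, so that the groups were close in this median. When the median of the matching bin was subtracted from each member, the medians became 0.07 for the cytosolic and -0.03 for the mitochondrial genes. Their difference went from 0.21 to 0.10, with 14 of 18 cytosolic and 6 of 17 mitochondrial genes above 0. What lies behind the relation with GC content was not tested.

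EPRS, whose product carries both the glutamyl- and the prolyl-tRNA synthetase activity, rose more than any other member. It lies on chromosome 1 of hg38 from 219968601 to 220046658. It had 1604 fragments (16.3 FPKM) with shControl and 2110 fragments (22.6 FPKM) with shFKBP9, an increase of 38.5% (log2 ratio 0.47, 95% interval 0.38 to 0.57). It was 0.41 above 0 after subtraction of the median of its GC bin, which was still past the limit.

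TARS, the threonyl-tRNA synthetase, came next and lay just inside the limit. It had 23.7 FPKM in shControl and 29.6 in shFKBP9, with a log2 ratio of 0.32 (0.24 to 0.40), an increase of 24.7%. The glycyl-tRNA synthetase gene GARS, which serves both compartments, had 33.1 and 40.3 FPKM and a log2 ratio of 0.28 (0.20 to 0.36). AARS, the alanyl-tRNA synthetase and the cytosolic gene with the highest FPKM, had 77.6 and 89.9 FPKM and a log2 ratio of 0.21 (0.16 to 0.26). None of these genes passed the limit, although all their intervals lay above 0.

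DARS, the aspartyl-tRNA synthetase, had a log2 ratio of 0.21 (0.13 to 0.29), but its transcript has a GC content of 38.1% and it stood only 0.06 above the median of its GC bin. SARS, for serine, had 68.5 and 74.2 FPKM, and per kilobase of canonical transcript it stood above AARS, with 137 against 102 in shControl and 149 against 118 in shFKBP9. It had a log2 ratio of 0.11 (0.06 to 0.17). YARS, for tyrosine, with 17.7 and 19.6 FPKM, was at 0.15 (0.07 to 0.23), and RARS, for arginine, with 32.4 and 35.4 FPKM, at 0.13 (0.04 to 0.22). NARS, for asparagine, with 21.7 and 23.5 FPKM, had an interval that only just left out 0 (0.11, 0.01 to 0.21). IARS, MARS, CARS and LARS, for isoleucine, methionine, cysteine and leucine, lay between 0.07 and 0.10. The intervals of CARS and LARS included 0, as did those of HARS at 0.00 and WARS at -0.01, so that no difference was detectable for these genes at this depth. WARS encodes the tryptophanyl-tRNA synthetase, which is also known to be induced by interferon.

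VARS, the valyl-tRNA synthetase, was the 1 cytosolic gene called lower, though the intervals of FARSA and QARS also lay below 0. VARS lies on chromosome 6 from 31777518 to 31795953 and had 3994 fragments (36.3 FPKM) with shControl and 3015 fragments (28.9 FPKM) with shFKBP9. Its log2 ratio was -0.33 (-0.40 to -0.26). It no longer passed the limit with 1 in place of 0.1 added to FPKM (-0.32), with scaling to the median gene (-0.31) or after subtraction of the median of its GC bin (-0.21). FARSA had a log2 ratio of -0.25 (-0.33 to -0.16) and QARS, the glutaminyl-tRNA synthetase, with 36.8 and 32.7 FPKM, one of -0.17 (-0.25 to -0.10). FARSB, at -0.08, had an interval from -0.20 to 0.05. After subtraction of the median of the GC bin, FARSA was at -0.13 and QARS at -0.08, whereas FARSB was at -0.20. VARS and FARSA had the highest GC contents of the cytosolic genes, 61.7% and 61.3%.

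Among the mitochondrial genes, AARS2 and EARS2 fell. AARS2, the mitochondrial alanyl-tRNA synthetase on chromosome 6 from 44299654 to 44313326, had 979 fragments (12.6 FPKM) with shControl and 691 fragments (9.36 FPKM) with shFKBP9. Its log2 ratio was -0.42 (-0.57 to -0.28), and it was -0.32 after subtraction of the median of its GC bin, still past the limit. The whole row of AARS2 lies within that of another gene on the opposite strand, to which only 13 and 16 fragments were assigned. EARS2, the mitochondrial glutamyl-tRNA synthetase on chromosome 16 from 23522014 to 23557731, had 5.64 and 4.29 FPKM from 585 and 422 fragments. Its log2 ratio was -0.39 (-0.58 to -0.21), and with the GC bin subtracted it was -0.321, just short of the limit. EARS2 also charges mitochondrial tRNA for glutamine with glutamate, which the GatCAB amidotransferase then converts. The genes of that amidotransferase, QRSL1, GATB and GATC, had log2 ratios of -0.07, 0.06 and 0.13, with intervals that included 0.

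The other 15 mitochondrial genes were not called. SARS2 had the lowest ratio, -0.53, but with so few fragments its interval ran from -1.42 to 0.15, and its row overlaps another protein-coding row on the same strand over 15493 bases. LARS2, for leucine, with 8.50 and 7.16 FPKM, was at -0.25 (-0.38 to -0.12). CARS2, for cysteine, with 24.3 and 22.3 FPKM, was at -0.12 (-0.19 to -0.06), and HARS2, for histidine, with 13.4 and 12.1 FPKM, at -0.14 (-0.28 to -0.00). These intervals lay below 0. FARS2, for phenylalanine, and IARS2, for isoleucine, had intervals above 0, with log2 ratios of 0.23 (0.04 to 0.43) and 0.11 (0.04 to 0.19). After subtraction of the median of the GC bin, LARS2 was at -0.18, CARS2 at -0.03, HARS2 at -0.07, FARS2 at 0.32 and IARS2 at 0.09. The intervals of PARS2, NARS2, VARS2, YARS2, TARS2, MARS2, WARS2 and RARS2 included 0, with log2 ratios from -0.22 for PARS2 to 0.07 for RARS2. The mitochondrial genes had a median of 1307 fragments in both libraries together and the cytosolic genes one of 5009, so that changes of the mitochondrial genes were measured less precisely.

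The cytosolic and the mitochondrial gene for the same amino acid were next set side by side. The cytosolic gene had the higher log2 ratio for 13 of 17 amino acids, with a median difference of 0.20. The conditional exact 95% interval of the difference, which again covers counting error only, lay above 0 for 7 amino acids, below 0 for 2 and included 0 for 8. The widest gap was that of glutamate, with EPRS at 0.47 and EARS2 at -0.39 (difference 0.86, interval 0.66 to 1.07). It was followed by proline, with EPRS and PARS2 (0.69, 0.29 to 1.12), and EPRS enters both of these values. Alanine, with AARS at 0.21 and AARS2 at -0.42, had a difference of 0.63 (0.49 to 0.79). Threonine, leucine and cysteine were also among the amino acids whose interval lay above 0, with differences of 0.36, 0.32 and 0.20. Serine had a difference of 0.64, but with SARS2 at so few fragments the interval ran from -0.03 to 1.54.

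Phenylalanine and valine went the other way. FARSA was at -0.25 and FARS2 at 0.23, a difference of -0.48 (-0.69 to -0.27), and FARSB in place of FARSA gave -0.31 (-0.54 to -0.08). VARS and VARS2 were at -0.33 and -0.12, a difference of -0.21 (-0.36 to -0.05). Isoleucine and tryptophan had differences of -0.01 and -0.03, with intervals that included 0. With the median of the GC bin subtracted from each gene, the cytosolic gene had the higher value for 14 of the 17 amino acids.

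**Figure D2:**
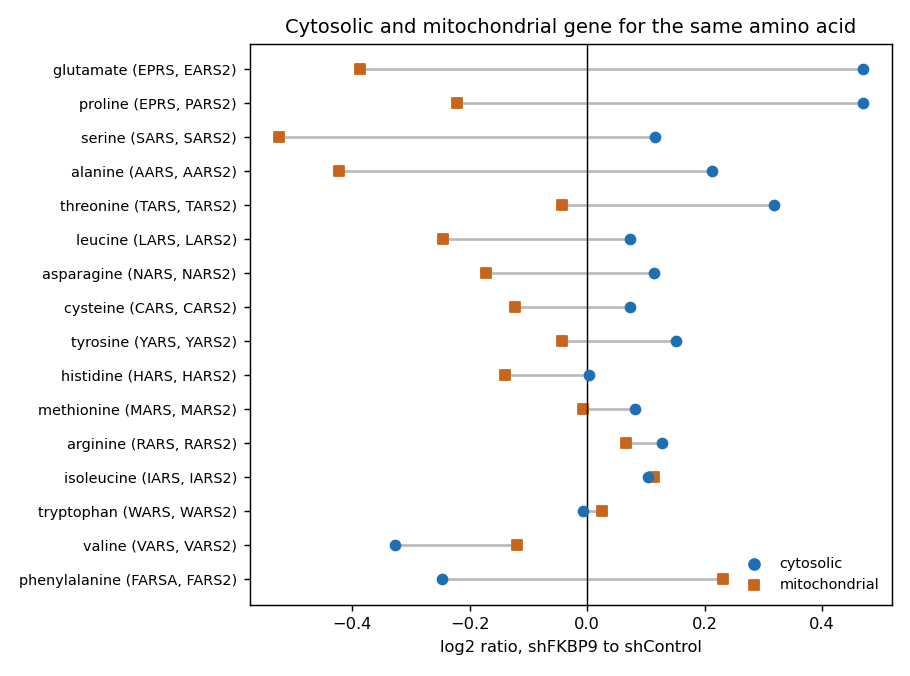
Log2 ratio (shFKBP9 over shControl) for the cytosolic gene (circle) and the mitochondrial gene (square) of each of 16 amino acids, ordered by the difference between them. The circle lies to the right of the square for 12 amino acids, most widely for glutamate (0.86), and to the left for phenylalanine, valine, tryptophan and isoleucine.

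The multisynthetase complex was then described as a group. Of the 11 genes of the complex, EPRS and EEF1E1 were called higher (18.2%, against 5.32% of the expressed genes) and 0 lower (against 6.07%). EEF1E1, the third scaffold protein, went from 131 to 171 fragments (log2 ratio 0.45, 0.12 to 0.80). Of the 11 genes 8 had a log2 ratio above 0, against 46.3% of the expressed genes. The intervals of 6 lay above 0, those of EPRS, EEF1E1, DARS, RARS, IARS and MARS, and those of 2, QARS and KARS, lay below 0. Such intervals were common. Among the expressed genes 16.2% were 1.1-fold higher and 19.6% were 1.1-fold lower with an interval on that side of 0. The share without a fold limit was not counted. AIMP1 had 12.4 and 13.1 FPKM (0.07, -0.08 to 0.22) and AIMP2 had 14.3 and 13.9 FPKM (-0.04, -0.23 to 0.15). KARS, for lysine, had 71.2 and 68.0 FPKM (-0.07, -0.12 to -0.01). The median log2 ratio was 0.08 over the 11 genes, 0.10 over the 7 genes of purely cytosolic enzymes in the complex, and 0.07 over the 11 cytosolic genes outside it. With the median of the GC bin subtracted, the order of the last 2 sets turned. The middle gene of the 7 was then RARS at 0.06, and that of the 11 outside was HARS at 0.09. By the structural classes of the enzymes, the 10 cytosolic and dual genes of class I, with EPRS counted there, had a median of 0.08 and the 10 genes of class II one of 0.11, so the classes were close together.

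The cytosolic genes were also divided by whether they are commonly listed as ATF4 targets. The 10 listed genes (AARS, CARS, EPRS, GARS, IARS, MARS, NARS, SARS, WARS and YARS) had a median log2 ratio of 0.11, with 9 above 0, against 46.3% of the expressed genes, and 1 called higher. The 10 other cytosolic and dual genes had a median of -0.03, with 5 above 0 and 1 called lower. TARS, at 0.32, was the highest of them and VARS, at -0.33, the lowest. The 6 genes with TGATGCAA in the promoter all had a log2 ratio above 0, from 0.07 for CARS to 0.32 for TARS, with a median of 0.11. The 8 cytosolic genes searched without a match ran from -0.25 for FARSA to 0.47 for EPRS, with a median of -0.00 and 4 above 0. These groups hold 6 to 10 genes each, and the differences between them were not tested. The list of ATF4 targets and the list of amino acid response genes came from general knowledge. Both were chosen with earlier results of these data known. EPRS, RARS and SARS, whose intervals lay above 0, were among those without these letters in the window. TARS, AARS, NARS, IARS and MARS, whose intervals also lay above 0, had them, as did CARS, whose interval included 0. ATF4 itself had 92.7 and 130 FPKM (log2 ratio 0.48, 0.43 to 0.54) and DDIT3 had 14.2 and 19.7 FPKM (0.47, 0.26 to 0.68). Of 16 amino acid response genes, 11 were called higher and 0 lower, with a median log2 ratio of 0.43, where 5.32% of the expressed genes were called higher and 6.07% lower. One of the 11, ASNS, with 0.260 and 0.497 FPKM from 21 and 38 fragments, was below the level at which genes were counted as expressed. Of the 14 promoters of this list that were searched, 1, that of CHAC1, held TGATGCAA, so most of the listed genes lacked these letters in the window. The looser form TGATGNAA was not counted for this list.

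Other genes that handle tRNA were measured beside the synthetases. Of 17 such genes, EEF1E1 was called higher and PSTK lower, 5.88% in each direction, which was near the 5.32% and 6.07% of the expressed genes. The median log2 ratio was 0.05, and 14 of the 17 genes, PSTK not among them, reached 1 FPKM. PSTK, the kinase that acts on seryl-tRNA on the way to selenocysteine, had 93 and 59 fragments (-0.51, -1.08 to -0.09). XPOT, the exportin that carries tRNA out of the nucleus, had 23.6 and 27.3 FPKM (0.21, 0.14 to 0.28). TARSL2, a further threonyl-tRNA synthetase gene outside the naming rule, had 2.96 and 3.46 FPKM (0.21, -0.03 to 0.48). Of 9 genes of elongation factors and their exchange factors, EEF1G was listed at 0 in both libraries. Whether this value reflects expression or the assignment of fragments to its row was not tested. Of the other 8, which all reached 1 FPKM, 0 were called in either direction, and the intervals of 5 lay below 0. Among the expressed genes 19.6% were 1.1-fold lower with an interval below 0, and the share without a fold limit was not counted. TUFM, the mitochondrial factor that delivers charged tRNA, had 107 and 87.9 FPKM (-0.28, -0.35 to -0.22), and EEF1A1, its cytosolic counterpart, was at -0.02 (-0.03 to -0.01). EEF2, which moves the ribosome along in the cytosol, was at -0.17 (-0.19 to -0.15), and EEF1D, of the exchange factor of EEF1A1, at -0.10 (-0.18 to -0.02). The mitochondrial genes GFM2 and GFM1 were at -0.26 (-0.46 to -0.08) and 0.03 (-0.09 to 0.16), so both compartments held genes with intervals below 0.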

How the data were processed

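RNA of the shControl and shFKBP9 lines of SF-539 was sequenced by the authors with 1 library per condition, after library preparation with a kit for which no strand information is stated. The authors removed adapter, poly-N and low quality reads, aligned read pairs to hg38 with HISAT2 2.0.5, counted them per gene with featureCounts 1.5.0-p3 and deposited FPKM, with the gene lengths, for 2 libraries. Other columns of values per library numbered 0.

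Each FPKM times the gene length was a whole multiple of 1 step per library (tolerance 1e-06, 100% of values), which gave the fragments. On a gene of 1 kilobase 1 fragment was worth 0.0552 FPKM in shControl and 0.0582 in shFKBP9. The authors compared the libraries with edgeR, and those results were not used here. With 1 library per condition the spread between replicates cannot be estimated, and no test was run. Values were described by the log2 ratio with 0.1 added to FPKM, exact 95% Clopper-Pearson intervals and a limit of 0.3219, an increase of 25%. Fragments from PCR without molecular identifiers are not independent molecules.

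Members were named, together with FKBP9, ATF4, DDIT3 and genes of the lists where a result turned on them. Members, lists, the fold limit and alternatives were chosen with earlier results of these data known, and the lists came from general knowledge. GC content was taken from canonical transcripts of GENCODE release 44, matched by gene identifier, for 99.8% of expressed genes and all members. Promoters were matched by gene identifier and symbol to RefSeq for 32 of 39 members. One member enters the counts and medians but is not reported by itself here. Scripts were tested on simulated data. Values were computed in Python 3.11.15 with pandas 2.3.3, intervals with scipy 1.17.1, GC content with numpy 2.4.6, and plots with matplotlib 3.10.9.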

Additional observations from a re-analysis of the deposited data

How the results depend on the processing

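The sign of the cytosolic median, of the mitochondrial median and of their difference was the same under every alternative run. The difference ranged from 0.10, with the median of the GC bin subtracted, an alternative added after the data were seen, to 0.21. At most 14 and at least 13 amino acids had the higher ratio for the cytosolic gene. The counts of called genes were small and moved with the limit. At 1.5-fold 0 members were called, against 1.08% of expressed genes higher and 1.13% lower. At 1.1-fold 5 of 18 cytosolic genes were called higher and 3 lower, and 1 of 17 mitochondrial genes higher and 4 lower, against 16.2% of expressed genes higher and 19.6% lower. With scaling to the median gene, 2 cytosolic genes were called higher (EPRS and TARS) and 0 lower. With 1 added to FPKM 0 cytosolic genes were called lower. With the GC bin subtracted 0 cytosolic genes and 1 mitochondrial gene were called lower, and 7 members changed sign: AIMP1, AIMP2, MARS2, TARS2, WARS, WARS2 and YARS2. Scaling to the median gene changed the sign of 3 members, MARS2 and WARS among them, and TPM that of HARS. Adding the fragments of pseudogene rows changed no call. FKBP9 was at -3.16 with 1 added to FPKM. With means in place of medians, the cytosolic level was 3.02 times the mitochondrial level in shControl and 3.27 times in shFKBP9. No paired analysis was possible because each condition has 1 library. SARS2 had the fewest fragments of the members. Whether its low count comes from low expression or from the row that overlaps it on the same strand was not tested. No alternative can stand in for replicate libraries.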

Other observations

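The rows of 31 members overlap another row of the table on the genome, and how fragments in such overlaps were assigned is not given in the sources used here. MARS shares 982 bases with DDIT3 on the opposite strand, and DDIT3 had 337 fragments in shControl and 442 in shFKBP9 beside 3164 and 3173 for MARS. HARS and HARS2 lie head to head on chromosome 5 and overlap by 437 bases, with log2 ratios of 0.00 and -0.14. YARS2 shares 18161 bases with DNM1L, and EARS2 shares 370 bases with UBFD1, both on the opposite strand. Pseudogene rows named for the members held 1 fragment in all, on KARSP2 in shControl.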
